A study of Mus musculus with 12 samples.

Results

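The genes described here were Atf4 and 9 genes known as its targets or partners in the integrated stress response, namely Ddit3, Trib3, Asns, Chac1, Psat1, Phgdh, Sesn2, Atf5 and Slc7a11. They were chosen by gene symbol, and each symbol was matched to its Ensembl identifier through the GENCODE M21 annotation. All 10 were found among the 30630 genes listed for each tumor, and all 10 were among the 19018 genes tested. RNA-Seq values were from 12 tumors of CT-26, a mouse colon carcinoma cell line, grown in male BALB/c mice bought at an age of 4 to 6 weeks. The cells were given in Matrigel under the skin of the right flank, so the tumors did not grow in the colon. The control group (6 tumors) and the swimming group (6 tumors) carried the same cells, and the labels name no altered gene and no drug for either group. Swimming lasted up to 30 min a session, with 2 sessions daily and 6 days of training per week, over 3 weeks. The values were FPKM, fragments per kilobase of transcript scaled to the total of fragments in the tumor. They were compared between genes and between tumors as deposited, and the alternatives with median scaling and quantile normalization rescaled the tumors.

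The integrated stress response is a pathway by which cells meet a shortage of amino acids, unfolded protein in the endoplasmic reticulum, heme shortage or viral RNA. Kinases that sense these conditions phosphorylate the initiation factor eIF2α, which slows protein synthesis as a whole while the mRNA of the transcription factor ATF4 is translated more. ATF4 then switches on genes for amino acid synthesis and uptake, for redox balance and, under lasting stress, for growth arrest and cell death, and tumors that outgrow their blood supply are a known setting of this pathway. Control of ATF4 itself is mostly at translation, which RNA levels do not measure.

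ATF4 is known to bind a composite element of C/EBP and ATF sites whose core can be written TGATGNAA. Promoter windows, from 250 bases before to 50 bases after the start site, were matched by symbol for all 10 genes in RefSeq on GRCm38.p6 and searched for TGATGNAA and for its reverse complement TTNCATCA. The letters were found for 4 of the 10 genes, namely Asns, Chac1, Slc7a11 and Trib3, and for 4.51% of all 27025 genes with such windows (3.97% of 32851 windows). Psat1 and Atf5 had 2 windows each. They are shown because these 4 genes include the enzyme Asns, which varied with Atf4, and Trib3 and Chac1, which varied with Ddit3. The sequences run 5′ to 3′ on the strand of the gene, with the matches in capitals. The Asns stretch is chr6:7693225-7693459 on the minus strand, with the match starting 23 bases before the start site. The Chac1 stretch is chr2:119350992-119351241 on the plus strand, with the match 193 bases before the start. The Slc7a11 stretch is chr3:50443614-50443863 on the minus strand, with matches 66 and 47 bases before the start. The Trib3 stretch is chr2:152344029-152344056 on the minus strand, with the match 14 bases after the start. These distances are from the RefSeq start, which can differ from the GENCODE gene bounds given below. By the GENCODE bounds the Trib3 match (152344039 to 152344046) lies before the gene, and the Asns match (7693225 to 7693232) lies inside Asns.
Asns: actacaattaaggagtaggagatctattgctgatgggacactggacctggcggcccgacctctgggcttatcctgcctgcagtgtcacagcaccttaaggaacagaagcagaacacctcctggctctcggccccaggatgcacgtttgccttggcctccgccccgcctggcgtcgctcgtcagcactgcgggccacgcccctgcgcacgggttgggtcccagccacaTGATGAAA
Chac1: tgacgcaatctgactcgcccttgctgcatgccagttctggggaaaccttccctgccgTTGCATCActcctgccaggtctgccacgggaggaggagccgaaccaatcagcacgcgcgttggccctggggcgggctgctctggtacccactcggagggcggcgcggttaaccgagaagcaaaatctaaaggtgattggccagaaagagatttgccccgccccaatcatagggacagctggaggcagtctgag
Slc7a11: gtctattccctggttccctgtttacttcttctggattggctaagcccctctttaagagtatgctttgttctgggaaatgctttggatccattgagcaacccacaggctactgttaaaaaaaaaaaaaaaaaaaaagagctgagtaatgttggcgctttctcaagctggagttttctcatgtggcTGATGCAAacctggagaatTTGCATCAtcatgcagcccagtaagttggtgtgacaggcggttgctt
Trib3: tagctcaggtTTACATCAgccgggcggg
A match is a description of the letters and not a site known to be used. For the other 6 genes the letters were not in these windows, and elements elsewhere in a gene were not searched.

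The cell type label was checked against 10 markers of epithelium and colon carcinoma. Krt20, a keratin of the intestinal epithelium, was abundant, with a lowest value of 99.8 FPKM in swimming 3 and a highest of 194 FPKM in control 5. Krt18 was between 5.89 and 14.8 FPKM, and Krt8 between 1.86 FPKM and 129 FPKM, the latter in control 4. Krt19 and Cdh1 were at most 0.757 and 0.430 FPKM in any tumor. Epcam, Vil1, Cdx2, Muc2 and Cldn4, which define colon epithelium, were not among the genes tested and had group means of at most 0.103 FPKM. The label therefore rested on keratins and not on the defining intestinal genes. Between any 2 tumors the correlation of values over all genes was from 0.975 to 0.991, and at most 0.71% of values were identical. Swimming 4 and swimming 5 stood apart for several of the genes below. Many of the counts and calls of genes are therefore also given without them.

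The order of the 10 genes by mean FPKM over the 12 tumors was Atf5, Atf4, Phgdh, Asns, Psat1, Ddit3, Trib3, Chac1, Sesn2 and Slc7a11. Atf5 had the highest level, 370 ± 30.7 FPKM (SD, n = 12), and Slc7a11 the lowest, 1.89 ± 0.520 FPKM. Atf4 (179.9 ± 44.2 FPKM) and Phgdh (176 ± 15.2 FPKM) were the only neighbours in this order that did not differ beyond their spread. Atf4 was the higher of this pair in 7 of 12 tumors (exact sign-flip permutation test, two-sided, p = 0.922). Each of the other 8 pairs of neighbours kept its order in all 12 tumors. For these 8 pairs the exact sign-flip p was 0.000488, the smallest that 12 tumors allow, and 0.000549 after adjustment over the 9 pairs. The genes of this pathway thus spanned levels from that of a scarce transporter to that of a very abundant transcription factor in the same tumors.

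**Figure D1:**
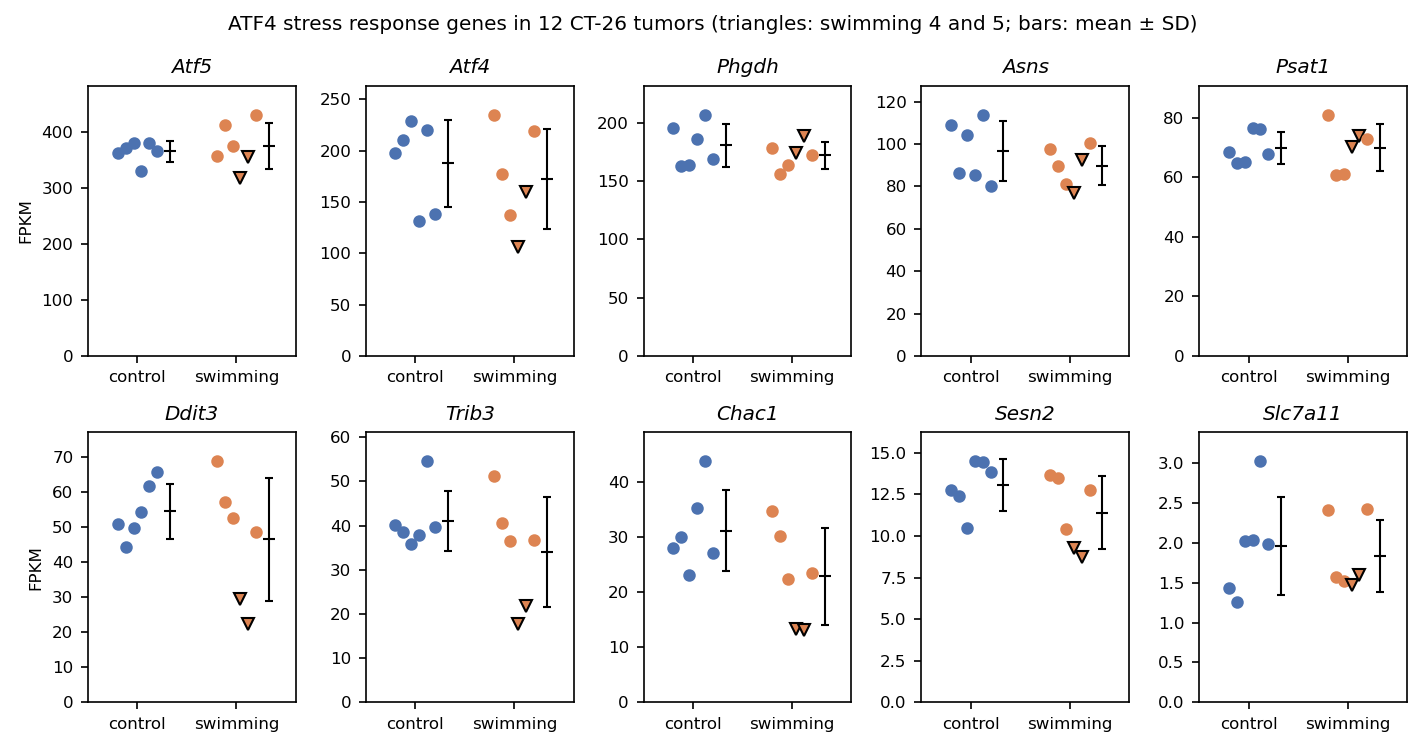
FPKM of each of the 10 genes (vertical axes, each from 0) in the 6 control and the 6 swimming tumors, 1 point for each tumor, with the mean ± SD of each group as a bar and swimming 4 and 5 as triangles. For Ddit3, Trib3, Chac1 and Sesn2 the triangles are the 2 lowest of the 12 tumors, and for every gene the groups overlap.

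Of the transcription factors, Atf4 (ENSMUSG00000042406) lies at chr15:80255184-80257541 on the plus strand of GRCm38. Values ran from a lowest of 131 through a median of 204 to a highest of 228 FPKM among controls, and with swimming the lowest, median and highest were 106, 169 and 235 FPKM. The lowest tumor was swimming 4 and the highest was swimming 1, so both ends of the range were swimming tumors. The log2 fold change (swimming minus control, on log2(FPKM + 1)) was -0.14 ± 0.20 (SE, n = 6 per group), with a 95% interval from -0.57 to 0.29, an exact permutation p of 0.539 and a limma p of 0.958 adjusted over all genes. Every tumor is a mixture of cells, and in such bulk samples fewer cells of a type and less RNA per cell cannot be told apart.

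Atf5 (ENSMUSG00000038539, chr7:44812256-44816658, minus strand) encodes a factor related to ATF4 that is likewise translated more under stress. The control tumors had 330, 369 and 381 FPKM as lowest, median and highest value, and the swimming tumors 318, 366 and 430 FPKM. The 2 highest tumors, swimming 6 and swimming 2, and the lowest, swimming 4, were all swimming tumors. It was the only one of the 10 genes with a higher mean of log2(FPKM + 1) in the swimming group, by a log2 fold change of 0.03 ± 0.07 (95% interval from -0.13 to 0.19, exact permutation p = 0.671, limma adjusted p = 0.978). Of its exonic bases, 4.11% are shared with Il4i1 or Nup62, and how reads there were divided is part of the deposited values.

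Ddit3 (ENSMUSG00000025408, chr10:127290774-127296288, plus strand) encodes CHOP, the factor of the pathway tied to cell death. Among controls the lowest, median and highest levels were 44.4, 52.5 and 65.5 FPKM, and among swimming tumors they were 22.3, 50.5 and 68.6 FPKM. Swimming 5 (22.3 FPKM) and swimming 4 (29.5 FPKM) were below every control tumor, swimming 1 was above every control tumor, and the other 3 swimming tumors lay within the control range. Ddit3 differed by a log2 fold change of -0.31 ± 0.23 (95% interval from -0.81 to 0.19, exact permutation p = 0.314, limma adjusted p = 0.917). The annotation lists a second identifier for Ddit3, which was between 0.134 and 0.193 FPKM and was not added. Of the exonic bases of Ddit3, 10.9% are shared with that identifier, Mars or Gm4189.

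Of the genes that act downstream on signaling and redox balance, Trib3 (ENSMUSG00000032715, chr2:152337422-152344032, minus strand) encodes a pseudokinase that feeds back on ATF4 and restrains AKT. Values ran from a lowest of 35.8 through a median of 39.1 to a highest of 54.5 FPKM among controls, and with swimming the lowest, median and highest were 17.7, 36.6 and 51.1 FPKM. Swimming 4 (17.7 FPKM) and swimming 5 (21.8 FPKM) were below every control tumor, and the other 4 swimming tumors overlapped with the controls. For Trib3 the log2 fold change was -0.33 ± 0.22 (95% interval from -0.80 to 0.13, exact permutation p = 0.208, limma adjusted p = 0.901).

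Chac1 (ENSMUSG00000027313, chr2:119351229-119354381, plus strand) encodes an enzyme that breaks down glutathione. The control tumors had 23.2, 29.0 and 43.8 FPKM as lowest, median and highest value, and the swimming tumors 13.1, 23.0 and 34.9 FPKM. Swimming 5 (13.1 FPKM) and swimming 4 (13.3 FPKM) were far below the rest, and swimming 3 (22.5 FPKM) was just below the lowest control. Of the 10 genes, Chac1 had the largest difference, a log2 fold change of -0.49 ± 0.23 (95% interval from -0.99 to 0.01, exact permutation p = 0.108, limma adjusted p = 0.889).

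Sesn2 (ENSMUSG00000028893, chr4:132492032-132510501, minus strand) encodes a leucine sensor that restrains mTORC1. Among controls the lowest, median and highest levels were 10.4, 13.3 and 14.5 FPKM, and among swimming tumors they were 8.72, 11.6 and 13.7 FPKM. Swimming 5, swimming 4 and swimming 3 were below the lowest control, and the other 3 swimming tumors were inside the control range. Sesn2 had a log2 fold change of -0.19 ± 0.12 (95% interval from -0.45 to 0.06, exact permutation p = 0.139, limma adjusted p = 0.899).

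Of the genes of amino acid supply, Asns (ENSMUSG00000029752, chr6:7675169-7693254, minus strand) encodes asparagine synthetase. Values ran from a lowest of 80.4 through a median of 95.3 to a highest of 114 FPKM among controls, and with swimming the lowest, median and highest were 76.8, 91.0 and 100.4 FPKM. Only swimming 4 was below the control range. Asns had a log2 fold change of -0.10 ± 0.10 (95% interval from -0.31 to 0.11, exact permutation p = 0.359, limma adjusted p = 0.934).

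Phgdh (ENSMUSG00000053398, chr3:98313170-98339990, minus strand) and Psat1 (ENSMUSG00000024640, chr19:15904678-15947337, minus strand) encode successive enzymes of serine synthesis. Phgdh was at 163, 178 and 207 FPKM (lowest, median and highest) in the control group and at 156, 173 and 189 FPKM among swimming tumors. Psat1 was at 64.9, 68.2 and 76.6 FPKM among controls and at 60.7, 71.5 and 81.0 FPKM among swimming tumors. Both genes were lowest in swimming 2, and for neither was swimming 4 or swimming 5 among the low tumors. The log2 fold change of Phgdh was -0.07 ± 0.07 (95% interval from -0.22 to 0.09, exact permutation p = 0.37, limma adjusted p = 0.938). That of Psat1 was -0.0028 ± 0.08 (95% interval from -0.17 to 0.16, exact permutation p = 0.97, limma adjusted p = 0.997), and its sign changed in several of the alternatives.

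Slc7a11 (ENSMUSG00000027737, chr3:49892526-50443614, minus strand) encodes the cystine transporter xCT, which feeds glutathione synthesis. The control tumors had 1.26, 2.0 and 3.02 FPKM as lowest, median and highest value, and the swimming tumors 1.46, 1.58 and 2.42 FPKM. All 6 swimming tumors were inside the control range. In Slc7a11 the log2 fold change was -0.05 ± 0.14 (95% interval from -0.36 to 0.25, exact permutation p = 0.714, limma adjusted p = 0.979). At such a low level the added 1 makes a fold change on this scale smaller than the ratio of the FPKM values.

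Whether the pathway as a whole differed in the swimming group was read from these values together. None of the 10 genes had an unadjusted limma p below 0.05, where 5.56% of all 19018 genes did, 2.46% lower and 3.11% higher in the swimming group. No gene of the series had a limma adjusted p below 0.05 (0%, against 1058 genes unadjusted), and the smallest adjusted p was 0.204. The groups overlapped for all 10 genes, while 0.147% of all genes did not overlap. The mean of log2(FPKM + 1) was lower in the swimming group for 9 of the 10 genes, where 48.3% of all genes tested had a negative log2 fold change. One of the 9, Psat1, turned with quantile normalization, and its mean FPKM was slightly higher with swimming (69.95 against 69.88). With 1 tumor left out, up to 2 of the 10 genes were below an unadjusted p of 0.05, namely Chac1 and Sesn2 without control 3, Chac1 and Trib3 without swimming 1, and Chac1 without swimming 2. The median log2 fold change was -0.12 over the 10 genes and 0.0039 over all genes. A p above 0.05 does not show that a gene was alike in the groups, and the intervals of Chac1, Trib3 and Ddit3 reach to -0.99, -0.80 and -0.81.

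Without both swimming 4 and swimming 5, an alternative chosen after the values were seen, the mean of log2(FPKM + 1) was higher in the swimming group for 5 of the 10 genes, where 46.5% of all genes tested had a positive log2 fold change. Log2 fold changes were then 0.059 for Ddit3, 0.0051 for Trib3, 0.037 for Atf4 and 0.021 for Slc7a11, all with the sign turned. Chac1 and Sesn2 kept a lower mean, with log2 fold changes of -0.16 and -0.05. For Phgdh the difference was -0.10, and for Atf5 it was 0.10. Since these 2 tumors were chosen as the lowest for Ddit3, Trib3, Chac1 and Sesn2, a higher swimming mean of these 4 genes without them follows from the choice.

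**Figure D2:**
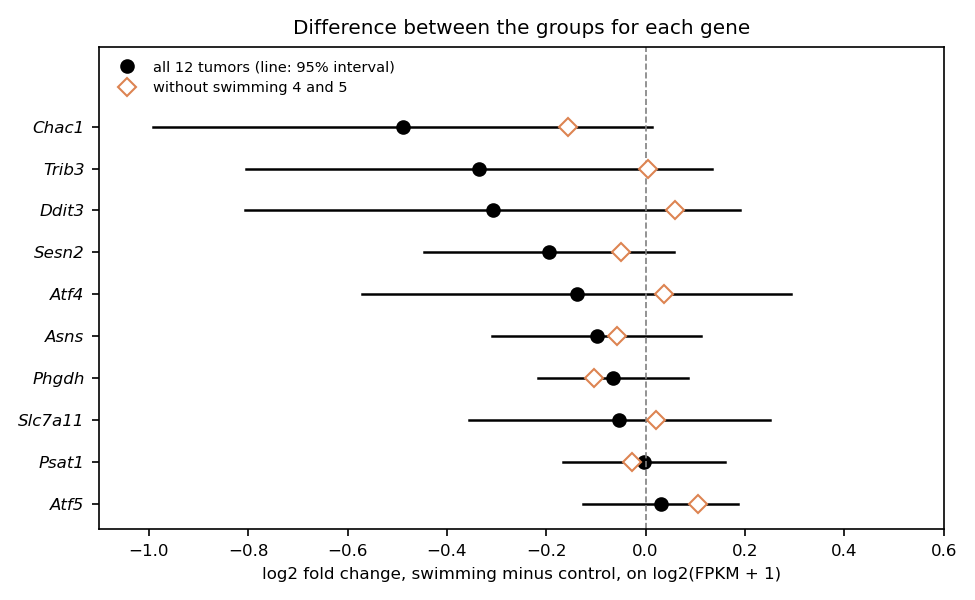
Log2 fold change of each gene (horizontal axis, swimming minus control on log2(FPKM + 1)) with all 12 tumors (black points, lines for the 95% interval) and without swimming 4 and 5 (open diamonds). All 10 intervals include 0, and the diamonds of Chac1, Trib3, Ddit3 and Sesn2 lie nearer to 0 than the points.

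The spread among swimming tumors was wider than among control tumors for several genes. On the log2 scale the SD of the swimming group divided by that of the control group was 2.95 for Ddit3, 2.67 for Trib3, 2.07 for Atf5 and 1.80 for Chac1. The median of this ratio over all genes tested was 0.936, and 1.82% of genes had a ratio of at least that of Ddit3. For Slc7a11, Asns and Phgdh it was below 1 (0.758, 0.708 and 0.673). Ddit3, Trib3 and Chac1 were also the 3 of the 10 genes with the largest SD among swimming tumors on this scale. Without swimming 4 and 5 the ratio was 1.03 for Ddit3, 1.06 for Trib3, 0.928 for Chac1, 1.02 for Sesn2 (1.58 with all 12 tumors), 0.992 for Atf4 (1.22) and 1.62 for Atf5, with a median of 0.831 over all genes. For Psat1 it was 1.90, the highest of the 10, against 1.53 with all 12. These 2 tumors were chosen as the lowest for Ddit3, Trib3, Chac1 and Sesn2, so a smaller spread of these 4 genes without them follows from the choice.

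Swimming 4 and swimming 5 were the 2 lowest of the 12 tumors for Ddit3, Trib3, Chac1 and Sesn2. The same was the case for 296 of the 8152 genes with a mean of at least 5 FPKM, or 3.63%. Swimming 4 was also the lowest tumor for Atf4, Asns and Atf5, in which swimming 5 ranked 5th, 7th and 3rd from the lowest. For Psat1 and Phgdh swimming 4 ranked 7th of 12 and swimming 5 ranked 9th and 10th. The serine synthesis enzymes were thus in the middle or upper part of their ranges in the tumors where the CHOP group was lowest. At the other end, control 5 was the highest tumor for Trib3, Asns, Chac1, Phgdh and Slc7a11, and swimming 1 for Atf4, Ddit3 and Psat1.

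**Figure D3:**
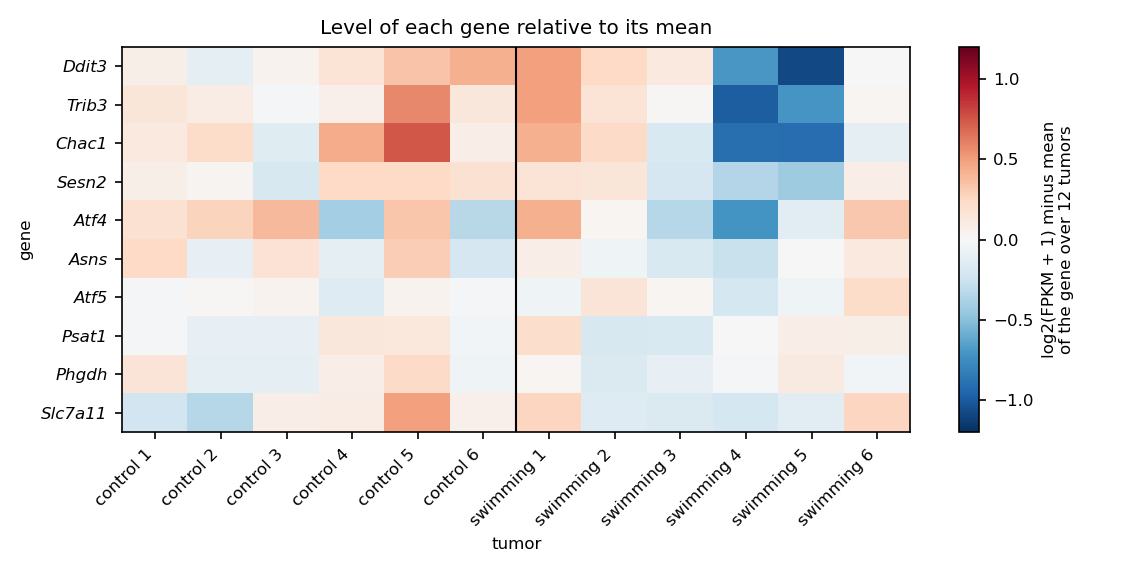
Level of each of the 10 genes (rows) in each of the 12 tumors (columns, control left of the line and swimming right of it) as log2(FPKM + 1) minus the mean of the gene over the 12 tumors. The deepest blue fields are those of Ddit3, Trib3 and Chac1 in swimming 4 and 5 and of Atf4 in swimming 4, and the deepest red is Chac1 in control 5.

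How the genes varied together was compared over the 12 tumors for all 45 pairs, on log2(FPKM + 1), with 100000 permutations and adjustment over the 45 pairs. Pearson's r was above 0 in 42 pairs, with a median of 0.42, and 7 pairs had an adjusted permutation p below 0.05. Of these, 6 were all the pairs among Ddit3, Trib3, Chac1 and Sesn2. The pair Trib3 and Chac1 had r = 0.94 and rho = 0.86 (adjusted permutation p = 0.00112 and 0.0137). Chac1 and Sesn2 had r = 0.92 and rho = 0.88 with the same adjusted permutation p-values. Ddit3 and Trib3 had r = 0.90 and rho = 0.79 (adjusted permutation p = 0.0093 and 0.025), and Ddit3 and Chac1 had r = 0.87 and rho = 0.70 (adjusted permutation p = 0.0093 and 0.0812). Sesn2 had r = 0.85 and rho = 0.80 with Ddit3 (adjusted permutation p = 0.0063 and 0.025). It had r = 0.84 and rho = 0.76 with Trib3 (adjusted permutation p = 0.0057 and 0.0427). These 4 genes formed 1 group of covarying genes in the 12 tumors.

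The seventh pair was Atf4 and Asns, with r = 0.82 and rho = 0.80 (adjusted permutation p = 0.0123 and 0.025). With the CHOP group, Atf4 had r = 0.64 for Trib3, 0.50 for Chac1, 0.37 for Ddit3 and 0.35 for Sesn2 (adjusted permutation p = 0.103, 0.256, 0.428 and 0.454), and rho = 0.48, 0.36, 0.25 and 0.20. Psat1 and Phgdh had r = 0.71 and rho = 0.79 (adjusted permutation p = 0.0553 and 0.025). Whether the r of Atf4 with Asns differs from that with Trib3 or the other genes was not tested.

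Left without the 2 tumors farthest from the median of the first gene of a pair, which were swimming 4 and 5 for the 6 pairs of the CHOP group, r was 0.82 for Trib3 and Chac1 and 0.79 for Chac1 and Sesn2. It was 0.69 for Ddit3 and Trib3, 0.58 for Trib3 and Sesn2, 0.54 for Ddit3 and Sesn2, and 0.49 for Ddit3 and Chac1. For Atf4 and Asns it was 0.75 without control 4 and swimming 4. No pair then had an adjusted permutation p below 0.05, with 10 tumors left, and the parts of the removed tumors and of the smaller number were not told apart. Within the 6 control tumors r was 0.81 for Trib3 and Chac1 and 0.78 for Chac1 and Sesn2, and within the 6 swimming tumors 0.97 and 0.95. For Ddit3 and Chac1 it was 0.35 within the control and 0.96 within the swimming tumors, and for Atf4 and Asns 0.74 and 0.95. Within a group of 6 tumors the smallest permutation p is 0.00139, which for a single pair out of 45 adjusts to 0.0625, as for Chac1 and Sesn2 in the swimming group. No pair was below 0.05 there, and with 6 tumors this could hardly be reached.

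**Figure D4:**
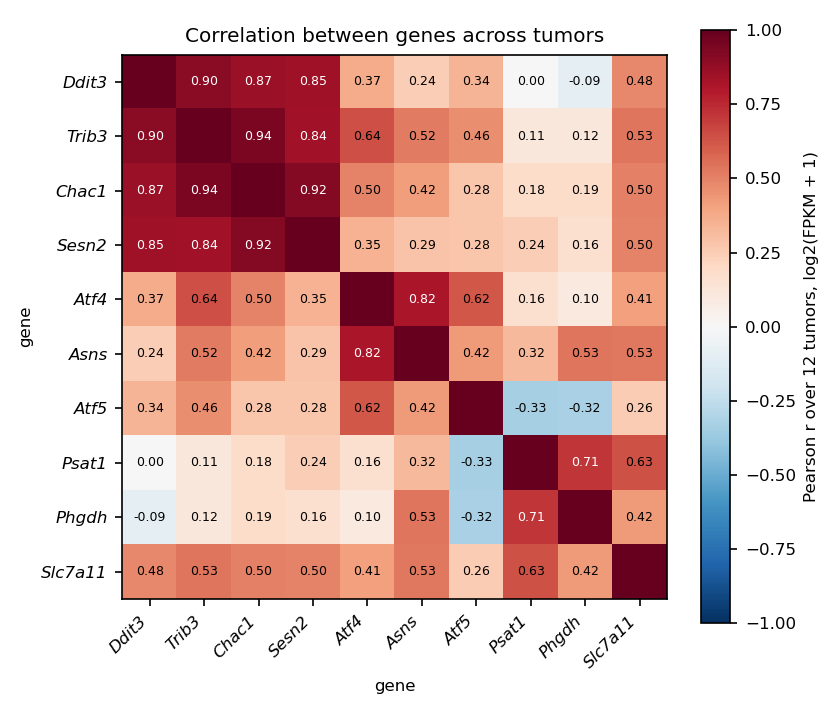
Pearson's r between each pair of the 10 genes over the 12 tumors, on log2(FPKM + 1), printed in each field and shown by color from -1 to 1. The red block at the upper left is Ddit3, Trib3, Chac1 and Sesn2, with r between 0.84 and 0.94, and the separate red pairs are Atf4 with Asns and Psat1 with Phgdh.

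Among 12779 genes with a mean of at least 1 FPKM, those most like each member over the 12 tumors were found by Pearson's r, given as a description. Nearest to Ddit3 was Sqstm1, the autophagy receptor p62 (r = 0.95), which was at 106 FPKM in swimming 5 and 144 FPKM in swimming 4 and between 157 and 225 FPKM in the other 10 tumors. The gene nearest to Chac1 was Sh2d6 (r = 0.97), and the next was Car6, a secreted carbonic anhydrase (r = 0.97). Car6 was at 5.73 FPKM in swimming 4 and 6.29 FPKM in swimming 5, and from 13.7 to 43.6 FPKM in the other tumors. For Sesn2 the nearest gene was Ercc1, a subunit of a DNA repair nuclease (r = 0.96), followed by Areg, a ligand of the EGF receptor (r = 0.95). For Trib3 it was the transcription factor Ets2 (r = 0.95), followed by Cdsn (r = 0.95), which was also among the stress genes listed for this pathway. That list was chosen with earlier results of these data known, so the overlap is not independent. Angptl6 was among the 3 nearest genes of both Ddit3 and Trib3, and Car6 among those of both Chac1 and Sesn2. The nearest gene was Mib2 for Atf4 (r = 0.88), Slirp for Asns (r = 0.91), Ehd1 for Phgdh (r = 0.95), Guk1 for Psat1 (r = 0.81), Gm32031 for Atf5 (r = 0.91) and Esf1 for Slc7a11 (r = 0.94).

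The rest of the pathway was described by 8 lists with 105 genes, of which 101 were tested. At an unadjusted limma p below 0.05, 9 genes (8.91%) were lower in the swimming group, where 2.46% of all genes were. At the same threshold 2 genes (1.98%) were higher, where 3.11% of all genes were. None had an adjusted p below 0.05 (smallest 0.204 over all genes), and 74 of the 101 genes had a negative log2 fold change, where 48.3% of all genes did. Genes are called higher or lower below by that unadjusted threshold alone. Atf3, Slc7a5 and Slc1a4 stayed below it in all 12 fits that left out 1 tumor, and the other 8 genes missed it in 1 (Trib2, without swimming 4) to 9 (Ggt1) of these fits. After scaling by the median log2 ratio Eif2b2 and Lars missed it, and after quantile normalization Eif2b2 did. The lower count depended on single tumors. It was 3 without swimming 4, 4 without swimming 2 or control 5, 5 without swimming 3 or control 6, and 18 without swimming 1. Without both swimming 4 and 5 it was 2, with 1 gene higher, where 2.29% of all genes were lower and 1.95% higher. Of the genes called with all 12 tumors Jdp2 and Atf3 were still called. For Atf3 swimming 4 and 5 were the 2 lowest swimming tumors, so a larger log2 fold change without them follows. Trib2 was not called, at a log2 fold change of 0.24 (0.29 with all 12 tumors), nor was Eif2b2, at -0.16 (-0.20). Nupr1 (-0.24, against -0.40) and Ggt1 (-0.13, against -0.21) were also lost, with 4 swimming tumors left. With same-numbered tumors paired, 11 were lower and 1 was higher, but Eif2b2, Aars and Trib2 missed the threshold. The higher count was also 1 without swimming 4.

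The amino acid transporters held the most genes of this kind, 3 of 12 lower and 0 higher, where 2.46% of all genes were lower and 3.11% higher. Slc7a5, the exchanger LAT1 for large neutral amino acids, was at 71.8, 87.2 and 95.6 FPKM (lowest, median and highest) in the control group and at 60.5, 67.7 and 90.6 FPKM among swimming tumors. It was below the control median in 5 of 6 swimming tumors, with swimming 1 as the exception. Its log2 fold change was -0.29 ± 0.10 (exact permutation p = 0.0303, limma adjusted p = 0.889).

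Slc1a5, the glutamine carrier ASCT2, was at 73.7, 85.0 and 102 FPKM among controls and at 68.6, 73.1 and 82.0 FPKM among swimming tumors (log2 fold change -0.22 ± 0.08, exact permutation p = 0.0411). All 6 swimming tumors were below the control median. Slc1a4, the carrier ASCT1, was at 13.1, 15.4 and 16.5 FPKM among controls and at 11.7, 12.8 and 16.0 FPKM among swimming tumors (log2 fold change -0.22 ± 0.08, exact permutation p = 0.0303). Without swimming 4 and 5 the log2 fold changes were -0.25, -0.21 and -0.18 for Slc7a5, Slc1a5 and Slc1a4. They moved little in size, and all 3 then missed an unadjusted limma p of 0.05. Slc38a2, another abundant transporter, had a log2 fold change of -0.08 ± 0.08 (exact permutation p = 0.355).

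Of the 20 cytosolic aminoacyl-tRNA synthetases, which charge tRNAs and include known ATF4 targets, 18 had a negative log2 fold change, with a median of -0.08. At an unadjusted limma p below 0.05, 2 of the 20 were lower, Lars and Aars. The shares over all genes tested were 48.3% negative and 2.46% lower. Aars was at 54.2 ± 4.0 FPKM among controls and 48.9 ± 3.21 FPKM with swimming (n = 6 per group, exact permutation p = 0.0325). Lars was at 94.8 ± 8.90 FPKM and 85.5 ± 5.15 FPKM (exact permutation p = 0.0238). The most abundant of them, Nars, had a log2 fold change of -0.09 ± 0.07 (exact permutation p = 0.214). For both Lars and Aars all 6 swimming tumors were below the control median. Left without swimming 4 and 5, Lars had a log2 fold change of -0.15 (-0.14 with all 12 tumors) and Aars one of -0.10 (-0.15 with all 12). Both then missed an unadjusted limma p of 0.05, with 4 swimming tumors left. In that fit 18 of the 20 synthetases had a negative log2 fold change and 1 was lower. Among all genes tested, 46.5% then had a positive log2 fold change and 2.29% were lower.

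Of 9 serine, glycine and one-carbon enzymes tested, none was called, and Shmt2, the most abundant, had a log2 fold change of -0.02 ± 0.07. Of 12 enzymes of proline, asparagine, aspartate and alanine, 1 was lower, Ggt1, which breaks down extracellular glutathione (0.798 ± 0.214 FPKM among controls and 0.551 ± 0.183 FPKM with swimming, n = 6 per group, exact permutation p = 0.0649). Among all genes tested, 2.46% were lower. Of the 7 kinases of eIF2α and their partners none was called, and the median log2 fold change was 0.0095. Of these 7 genes, 3 had a negative and 4 a positive log2 fold change.

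Of 10 subunits and phosphatase genes of eIF2 and eIF2B, 1 was lower, Eif2b2, a subunit of the exchange factor eIF2B (19.8 ± 2.63 and 17.1 ± 1.71 FPKM, n = 6 per group, exact permutation p = 0.0649). Among all genes tested, 2.46% were lower. Ppp1r15a encodes GADD34, which ends the response by dephosphorylating eIF2α. It was at 16.3 FPKM in swimming 4 and 12.9 FPKM in swimming 5 and at 25.8 FPKM or more in the other 10 tumors, with a log2 fold change of -0.37 ± 0.28 (exact permutation p = 0.284). GADD34 thus had the same 2 lowest tumors as CHOP. Of the 101 genes tested, 9 had swimming 4 and 5 as their 2 lowest tumors, namely Ppp1r15a, Cebpb, Tnfrsf10b, Vegfa, Herpud1, Cdsn, Ggt1, Iars and Sars. With a mean of at least 5 FPKM there were 7 of 81 (8.64%), where 3.63% of all such genes had these 2 lowest tumors. The lists were chosen with earlier results of these data known.

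Of 12 bZIP partners of ATF4, Atf3 was higher and Jdp2 lower, where 3.11% of all genes were higher and 2.46% lower. Atf3, a stress factor that ATF4 is known to induce, was at 2.07, 2.77 and 3.07 FPKM (lowest, median and highest) in the control group and at 2.38, 4.09 and 5.06 FPKM among swimming tumors. Its log2 fold change was 0.38 ± 0.14 (exact permutation p = 0.0346, limma adjusted p = 0.889) and 0.58 without swimming 4 and 5, where the values of Ddit3 were -0.31 and 0.059. For Atf3, swimming 4 and 5 were the 2 swimming tumors that lay inside the control range and the 2 lowest of the group. A larger log2 fold change without them follows from that. Jdp2, a repressor of the same family, had a log2 fold change of -0.18 ± 0.07 (exact permutation p = 0.0368).

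Of 19 other stress genes downstream of ATF4, 1 was lower and 1 higher, where 2.46% of all genes were lower and 3.11% higher. Nupr1, a small chromatin protein of the stress response, was at 35.2 ± 5.86 FPKM among controls and 26.9 ± 6.84 FPKM with swimming (log2 fold change -0.40 ± 0.16, n = 6 per group, exact permutation p = 0.0519). All 6 swimming tumors were below its control median. Trib2, a pseudokinase related to Trib3, was at 13.1 ± 2.45 and 16.0 ± 1.73 FPKM (log2 fold change 0.29 ± 0.11, n = 6 per group, exact permutation p = 0.0303). Every swimming tumor was above its control median, and swimming 4, the lowest tumor for Trib3, was the highest for Trib2.

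**Figure D5:**
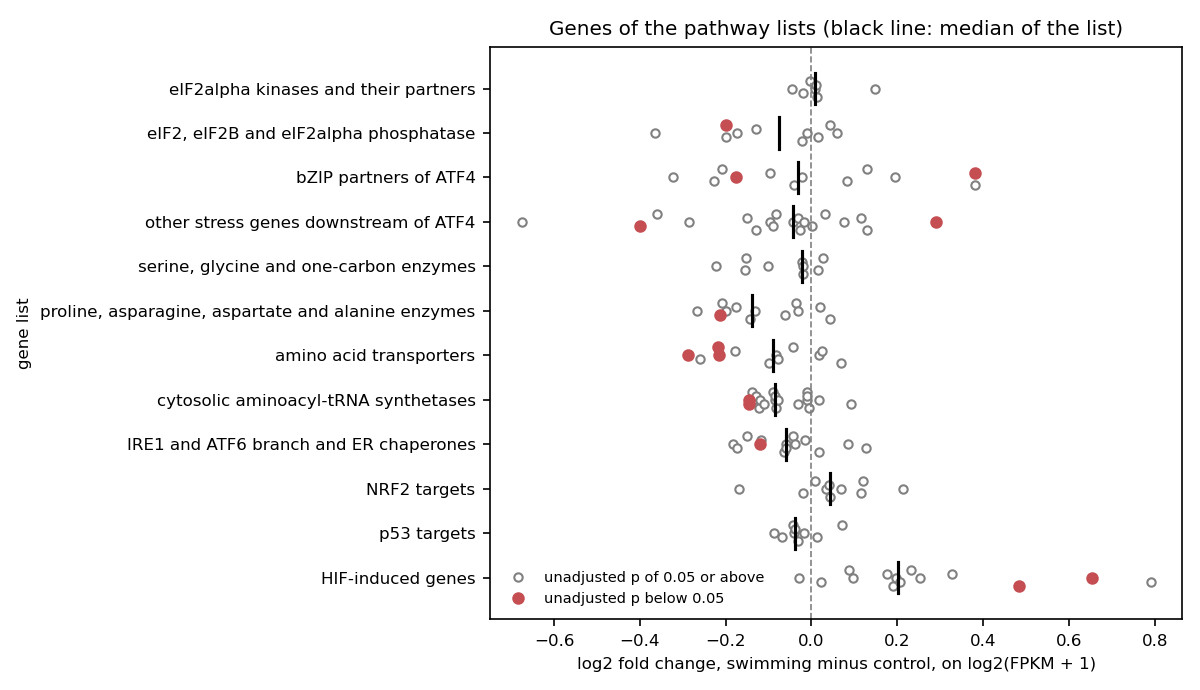
Log2 fold change of each tested gene (horizontal axis, swimming minus control on log2(FPKM + 1)) in 12 gene lists (rows), with filled points for an unadjusted limma p below 0.05 and a black line at the median of each list. The medians of 7 of the 8 lists of this pathway lie between -0.14 and -0.02 and that of the kinases at 0.0095, while that of the HIF-induced genes lies at 0.20. Without swimming 4 and 5 the medians of the bZIP partners and of the other stress genes turned sign, to 0.026 and 0.016.

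Other stress programs were read from lists of the same kind. Of 14 genes of the IRE1 and ATF6 branches and ER chaperones, 11 had a negative log2 fold change and 1, Atf6b, was lower (-0.12 ± 0.06, exact permutation p = 0.0541). Of all genes tested, 48.3% had a negative log2 fold change and 2.46% were lower. Hspa5, the chaperone BiP, had a log2 fold change of -0.18 ± 0.14 (exact permutation p = 0.255). None of 10 NRF2 targets and none of 9 p53 targets was called, and their median log2 fold changes were 0.04 and -0.04. Of 14 HIF-induced genes 13 had a positive log2 fold change, with a median of 0.20, and 2 were higher. Of all genes tested, 51.7% had a positive log2 fold change and 3.11% were higher. Of the 2, Bnip3, a mitophagy receptor, was at 49.9 ± 18.5 FPKM among controls and 77.3 ± 19.8 FPKM with swimming (n = 6 per group, exact permutation p = 0.0303). The other was Pfkfb3 (exact permutation p = 0.0693). With swimming 4 and 5 left out, the log2 fold change of Pfkfb3 was 0.54 (0.48 with all 12 tumors) and that of Atf6b -0.12, as with all 12, and both missed an unadjusted limma p of 0.05. With 1 tumor left out, Atf6b missed it in 8 and Pfkfb3 in 7 of the 12 fits, and Atf6b also missed it with all 12 tumors after scaling by the median log2 ratio or quantile normalization. Both genes missed it with same-numbered tumors paired. Bnip3 did not miss it in any of these fits. Without swimming 4 and 5, 3 of the 14 HIF-induced genes were higher, where 1.95% of all genes were. In that fit 1 HIF-induced gene and 9 of the 14 genes of the IRE1 and ATF6 list had a negative log2 fold change. A positive one was then found for 46.5% of all genes tested.

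Markers of other cells and of growth were compared because swimming 4 and 5 were the 2 lowest tumors for Ddit3, Trib3 and Chac1. Of 6 proliferation markers 1 was higher, Mki67, at 39.1 ± 5.77 FPKM among controls and 48.3 ± 5.85 FPKM with swimming (n = 6 per group, exact permutation p = 0.0216). Of all genes tested, 3.11% were higher. Without swimming 4 and 5 the log2 fold change of Mki67 was 0.20 (0.30 with all 12 tumors), it missed an unadjusted limma p of 0.05, and 0 of the 6 were called. The summed level of these 6 genes was 405 FPKM in swimming 4 and 415 FPKM in swimming 5, and from 298 to 360 FPKM in the other 10 tumors, with Pcna as the most abundant. Of the 6 markers, 4 had a positive and 2 a negative log2 fold change, where 51.7% of all genes tested had a positive one. The values of Mcm2, Ccnb1 and Cdk1 by tumor are not given here. Mki67, Top2a and Pcna were each highest in swimming 4 and 5, which were the lowest tumors for Ddit3, Trib3, Chac1 and Sesn2. The part of proliferation in those levels was not tested.

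Of 10 skeletal muscle markers none was called. All 10 had a positive log2 fold change (median 0.42), where 51.7% of all genes tested did. Without swimming 4 and 5, 9 of the 10 had a negative one (median -0.19), where 46.5% of all genes tested had a positive one. The summed level of the 10 varied from 2.50 FPKM in swimming 6 to 308 FPKM in swimming 5, with Acta1 as the most abundant. It was 74.6 FPKM in swimming 4, 218 FPKM in control 6 and 209 FPKM in swimming 3. The part of muscle in the levels of the stress genes was not tested. Of 8 fibroblast markers none was called, and their sum was 835 FPKM in control 1, 792 FPKM in swimming 5 and 374 FPKM in swimming 4, with Col1a2 as the most abundant. None of the 10 macrophage and neutrophil, 8 endothelial and 4 adipocyte markers tested was called, and the sums over all listed genes in swimming 4 were 596, 40.7 and 13.6 FPKM and in swimming 5 770 (the highest of the 12), 54.6 and 29.6 FPKM.

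Of 10 markers of T and NK cells 3 were higher in the swimming group, Cd3g, Cd3d and Cd8a (exact permutation p = 0.0216, 0.0195 and 0.0455), and 9 had a positive log2 fold change. Of all genes tested, 3.11% were higher and 51.7% had a positive log2 fold change. Without swimming 4 and 5 the log2 fold change of Cd8a was 0.44 (0.61 with all 12 tumors), it missed an unadjusted limma p of 0.05, and 2 of the 9 markers then tested were higher. The sum of the 10 was 23.6 ± 5.73 FPKM among controls and 29.1 ± 8.28 FPKM with swimming (n = 6 per group), from 14.2 FPKM in swimming 1 to 37.4 FPKM in swimming 5, with Prf1 as the most abundant. None of the 10 was at 0 in all tumors. Swimming 1, with the lowest sum, was the highest tumor for Ddit3 and Atf4. The part of these cells in the levels of the stress genes was not tested.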

How the data were processed

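The authors removed ribosomal RNA, mapped reads with HISAT2 2.0.5 and quantified genes with StringTie 1.3.3, and deposited 1 FPKM value per gene and tumor. The submitters' processing notes list hg38 and GRCm38, and the identifiers are of mouse. Positions are from GENCODE M21 (GRCm38), matched by identifier. FPKM holds no read numbers, so no counting error can be given. Relative depth, from the values of weakly expressed genes against control 1, was 0.694 in control 2 and from 0.871 to 1 in the others.

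Groups came from the sample labels. Genes that reached 0.1 FPKM in 6 or more tumors were compared on log2(FPKM + 1) with limma 3.58.1 (R 4.3.3, eBayes with trend, no covariate, Benjamini-Hochberg adjustment over 19018 genes), a fit tested on simulated data. Permutation tests were two-sided, exact over all divisions into 6 and 6, or with 100000 permutations for correlations (scipy 1.17.1). P-values measure the spread between tumors of this 1 experiment. The 10 genes and the 20 other lists were chosen with earlier results of these data known. Named are the 10 genes, list members with an unadjusted p below 0.05 or the 3 highest levels, and the 3 genes most like each of the 10. Others, such as genes lowest in swimming 4 and 5, were chosen after their values were seen. Alternatives were other pseudocounts (0.1 and 0.01) and filters (none and 1 FPKM), quantile normalization, median scaling, sample weights, eBayes with no trend, a block for the replicate number, and fits without each tumor in turn. Fits without both swimming 4 and 5, and pathway counts under every setting, were added after the data were seen.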

Additional observations from a re-analysis of the deposited data

Results flagged for a closer look

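Within groups of 6 tumors, the highest or lowest value was compared with its gap to the next one. Of 64 groups of values 5 had a tumor far from the other 5, where chance gives about 1 in 20 groups, or 3.2. Trib3 was 54.5 FPKM in control 5, and the other control tumors were between 35.8 and 40.2 FPKM. Slc1a4 was 13.1 FPKM in control 2, below the other controls at 15.2 to 16.5 FPKM, and 16.0 FPKM in swimming 1, above the other swimming tumors at 11.7 to 13.1 FPKM. Slc7a5 was 90.6 FPKM in swimming 1, above the other swimming tumors at 60.5 to 70.8 FPKM. Lars was 75.8 FPKM in swimming 3, below the other swimming tumors at 85.1 to 89.6 FPKM. For Ddit3, Trib3, Chac1 and Sesn2 the 2 lowest swimming tumors lay side by side, and a gap to the next value cannot single out either of them.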

How the results depend on the processing

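Of 220 values of the 10 log2 fold changes under the alternatives, 204 kept their sign and their side of an unadjusted p of 0.05, 5 kept their sign and passed that threshold, and 11 changed sign. Psat1 changed sign with quantile normalization (0.010) and in 4 of the 12 fits that left out 1 tumor, namely control 4, control 5, swimming 2 or swimming 3 (range -0.046 to 0.036). Atf5 changed sign without swimming 6 (-0.011, range -0.011 to 0.076) and Slc7a11 without control 5 (0.040, range -0.13 to 0.040). Without both swimming 4 and 5 the sign turned for Atf4 (0.037), Ddit3 (0.059), Trib3 (0.0051) and Slc7a11 (0.021), with 4 swimming tumors left. Of the 10 genes, the number at an unadjusted limma p below 0.05 was 0 in all settings other than those that left out 1 tumor, where it was 0 to 2. These were Chac1 and Sesn2 without control 3, Chac1 and Trib3 without swimming 1 and Chac1 without swimming 2. By the exact permutation test it was 0 to 2, with 2 without swimming 1. The number with a higher mean of log2(FPKM + 1) in the swimming group was 2 with quantile normalization, 0 to 3 with 1 tumor left out and 5 without swimming 4 and 5. Among all genes, those at an adjusted p below 0.05 were 1 with sample weights (Txndc5), 1 without swimming 4 and 5 (Ctdsp2) and 0 to 3 with 1 tumor left out. Those at an unadjusted p below 0.05 were 820 to 1427 with 1 tumor left out. The 7 pairs of genes with an adjusted permutation p below 0.05 became 0 within the control group, 0 within the swimming group and 0 without the 2 farthest tumors, but with 6 tumors the smallest p adjusts to 0.0625 for a single pair, so the counts within groups say nothing about stability. The causes were not tested.

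With the replicate number as a block, 0 of the 10 genes and 892 of all genes had an unadjusted p below 0.05, and 0 an adjusted one. The numbers share nothing known between tumors. Deviations of same-numbered tumors correlated with r from -0.32 to 0.0059 (mean -0.12, against 0.02 for different numbers), and 0 of the 6 control tumors correlated best with its own number. Precision is limited by 6 tumors per group, and by the low level of Slc7a11.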
